A study of Homo sapiens with 18 samples.

Results

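SIX3, SIX6, RAX, VAX1, FEZF1, FEZF2, HESX1, LHX2 and NKX2-1 are transcription factor genes of the forebrain and the eye field. They were taken by symbol, as 9 of the 37550 rows of a table of transcript abundance, and followed through 9 groups of human stem cells and neural ectoderm. Of the 9 genes, 8 reached at least 1 TPM, a length-scaled share of the transcripts of a library, in at least 2 libraries and entered the tests, and NKX2-1 did not. A gene that entered only through the group where it was high had to differ between groups, so counts of changed genes are descriptions of these 9 genes.

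The anterior end of the neural plate forms where WNT and other posteriorizing signals are kept low, and it gives rise to the telencephalon, the hypothalamus and the eyes. The eye field is the part of this territory from which both retinas arise, and it is marked by homeobox genes such as RAX, SIX3, SIX6 and LHX2. SIX3 is known to repress WNT genes in the anterior neural plate, and several of these factors act as repressors of more posterior programmes. Retinoic acid and FGF act in the opposite sense, towards hindbrain and spinal cord identity.

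RNA was profiled in H1, an established human embryonic stem cell line, wild type in every group, in 18 libraries that formed 9 groups of 2 biological replicates. Undifferentiated cells (hPSC) were collected at day 0, and anterior (aNE) and posterior (pNE) neural ectoderm at day 2. Cells of either origin were also collected at day 4 after a forebrain medium (aNE_T, pNE_T), a midbrain medium (aNE_M, pNE_M) or a hindbrain medium (aNE_H, pNE_H). The comparisons ask how the origin set at day 2, and the medium that followed, relate to the levels of these genes.

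Every differentiated group had first spent 1 day in a medium with the TGF-beta receptor inhibitor A8301 (1 µM), the MEK inhibitor trametinib (250 nM), the porcupine inhibitor C59 (1 µM) and the BMP receptor inhibitor LDN193189 (100 nM). On the second day the aNE cells received A8301, LDN193189 (100 nM) and C59 (1 µM). The pNE cells received A8301, LDN193189, the retinoic acid receptor agonist TTNPB (50 nM), FGF2 (20 ng/mL) and the tankyrase inhibitor XAV939 (1 µM) on that day. The ROCK inhibitor thiazovivin was in both day-2 media. XAV939 (1 µM), LDN193189 (100 nM) and FGF2 (20 ng/mL) were in the forebrain medium, and what the midbrain and hindbrain media held is not used here. Cells for day 2 were seeded at 37500 per cm2 whichever their origin, but for day 4 the aNE cells were seeded at 75000 and the pNE cells at 150000 per cm2. At day 4, origin and seeding density cannot be told apart. Between day 2 and day 4, the medium, the time in culture and the seeding density all differ and cannot be told apart. All libraries came from 1 cell line, and nothing in the labels ties a replicate of a group to a replicate of another.

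Per library, 13686 to 14679 genes reached 1 TPM. Read numbers cannot be had from TPM, so sequencing depth is unknown and precision is read from replicates alone. Over the 17033 tested genes, taken as points that are not independent, replicate libraries correlated with a Pearson r of 0.982 to 0.987 and libraries from unlike groups with one of 0.879 to 0.968. Of 8 pluripotency markers, all 8 were at 1 TPM or more in both hPSC libraries, where they summed to 4625 and 4649.9 TPM. They summed to 423 to 425 TPM in aNE and 544 to 573 TPM in pNE. Of 9 pan-neural markers, 8 were at 1 TPM or more in both aNE libraries and 7 in both pNE libraries. The pan-neural marker HES5 was listed at 0 in 10 of the 18 libraries. In a bulk sample, fewer cells with a transcript and less of the transcript per cell cannot be told apart.

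In GENCODE v29 on GRCh38, SIX3 lies at chr2:44941898-44946077 and LHX2 at chr9:124001670-124033301, both on the plus strand. SIX6 lies at chr14:60508951-60512850 on the plus strand and NKX2-1 at chr14:36516392-36521149 on the minus strand. The other 5 genes are on the minus strand: RAX at chr18:59267035-59274086, VAX1 at chr10:117128521-117138301, FEZF1 at chr7:122301394-122310691, FEZF2 at chr3:62369681-62374324 and HESX1 at chr3:57197838-57227606. C14orf39 overlaps SIX6 on the other strand and reached at most 4.36 TPM in any library. Its mean was 3.62 TPM in aNE_T, where SIX6 was far higher. In aNE the mean of C14orf39 was 1.45 TPM and that of SIX6 2.46 TPM. C14orf39 had the higher mean in aNE_H (3.44 beside 3.03 TPM), pNE (3.11 beside 2.10 TPM) and pNE_T (1.55 beside 0.791 TPM). Like SIX6, it was called lower in pNE_H than in aNE_H (by -1.45 in log2) and than in pNE (by -1.34). Its part in the low SIX6 levels was not tested. FEZF1, LHX2 and NKX2-1 also overlap other transcripts in that annotation, among them FEZF1-AS1 and NKX2-1-AS1, which were not analysed here. Whether the quantification used the strand is not given in the sources used here.

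Homeodomain proteins of the RAX, VAX1, HESX1 and LHX2 kind share a preference for the core letters TAAT, so the upstream sequences of RAX and FEZF1, highest in aNE, of VAX1, highest in aNE_T, and of HESX1, highest at day 2 in either origin, are shown with that core, or its reverse complement ATTA, in capitals. They are from RefSeq (GRCh38.p14) and read 5′ to 3′ on the gene's strand. Each lies within the 250 bases before an annotated start, cut to the stretch outside UTRs and coding bases of GENCODE v29. By the gene coordinates of that annotation, the stretches of RAX, FEZF1 and HESX1 lie inside the gene, and only that of VAX1 lies before it. Of the 9 genes, 7 matched the promoter table, with 10 windows. The stretch of RAX is chr18:59273455-59273704, that of FEZF1 is chr7:122304751-122305000, that of VAX1 is chr10:117138302-117138520 and that of HESX1, at the second of its annotated starts, is chr3:57200029-57200228, all on the minus strand.
RAX: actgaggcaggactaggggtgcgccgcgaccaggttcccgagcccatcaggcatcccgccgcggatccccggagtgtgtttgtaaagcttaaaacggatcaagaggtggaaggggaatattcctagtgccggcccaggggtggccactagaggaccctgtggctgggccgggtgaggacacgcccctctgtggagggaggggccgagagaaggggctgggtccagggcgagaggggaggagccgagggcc
FEZF1: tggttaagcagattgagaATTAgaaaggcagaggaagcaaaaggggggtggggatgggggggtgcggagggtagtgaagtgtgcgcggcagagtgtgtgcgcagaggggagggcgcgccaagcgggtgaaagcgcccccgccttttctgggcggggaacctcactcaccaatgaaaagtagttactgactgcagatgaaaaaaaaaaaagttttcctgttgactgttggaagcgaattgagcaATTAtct
VAX1: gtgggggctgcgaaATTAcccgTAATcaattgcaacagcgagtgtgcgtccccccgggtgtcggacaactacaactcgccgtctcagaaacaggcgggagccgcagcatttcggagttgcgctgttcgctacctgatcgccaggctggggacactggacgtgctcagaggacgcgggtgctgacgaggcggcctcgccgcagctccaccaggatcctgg
HESX1: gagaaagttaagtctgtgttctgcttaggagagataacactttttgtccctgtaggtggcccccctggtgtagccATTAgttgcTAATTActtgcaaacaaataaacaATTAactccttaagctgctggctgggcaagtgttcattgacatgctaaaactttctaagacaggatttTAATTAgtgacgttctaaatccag
The RAX stretch held 0 matches to TAAT on either strand, and the FEZF1 and VAX1 stretches held 2 each. The HESX1 stretch held 6, of which 4 came from 2 copies of the palindrome TAATTA, where the core reads on both strands. The window at the other annotated start held 0 matches for HESX1 and 1 for FEZF1, so these counts depend on the start chosen. Of the matched genes not shown, the windows of SIX6 and LHX2 held 0 matches, and those of NKX2-1 held 0 and 2. Across 35116 RefSeq promoter windows of 250 bases, 47.4% held TAAT or its reverse complement and 4.35% held TAATTA. These are matches of letters and were not measured as binding sites.

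SIX3, a homeodomain factor needed for the forebrain and the eyes, was at 0.0310 and 0.0295 TPM in hPSC and at 187 and 192 TPM in aNE. It was at 414 and 379.5 TPM in aNE_T, 3.78 and 3.16 TPM in aNE_M, and 73.8 and 58.1 TPM in aNE_H. In cells of posterior origin it was at 49.7 and 71.7 TPM in pNE, 38.0 and 39.8 TPM in pNE_T, 0.129 and 0.184 TPM in pNE_M, and 10.8 and 10.4 TPM in pNE_H. SIX3 was thus present in both day-2 states, highest in aNE_T and lowest, after hPSC, in pNE_M. In the order of group means, only aNE_H and pNE overlapped among neighbours. SIX3 was at 10 TPM or more in both libraries of 6 of the 9 groups, more groups than any of the other 8 genes.

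SIX6, its close relative in the optic vesicle and the hypothalamus, was at 161 and 159 TPM in aNE_T. It was at 2.16 and 2.76 TPM in aNE, 2.86 and 3.20 TPM in aNE_H, 1.88 and 2.31 TPM in pNE, and 0.547 and 1.04 TPM in pNE_T. The remaining 8 libraries (hPSC, aNE_M, pNE_M and pNE_H) held 0.0786 TPM or less, and both pNE_M libraries were listed at 0. Its aNE_T mean was 52.8-fold above that of aNE_H, the next group, and made up 94.95% of the sum of its 9 group means. The aNE and pNE libraries overlapped. On the TPM scale, SIX3 exceeded SIX6 by a ratio of 86.9 and 69.5 in the aNE libraries and of 2.57 and 2.39 in the aNE_T libraries.

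RAX, a homeobox gene required to form the eye field, was at 26.8 and 32.2 TPM in aNE and at 14.7 and 12.4 TPM in aNE_T. It was at 4.75 and 0.487 TPM in aNE_H, a wide split between replicates, and at 0 in both aNE_M libraries. In the posterior groups it was at 0.0559 and 0.183 TPM in pNE, 0.0530 and 0.193 TPM in pNE_T, and 0 in the 4 libraries of pNE_M and pNE_H. The hPSC libraries held 0.0568 and 0.0811 TPM. RAX therefore exceeded 1 TPM in 5 libraries, all of anterior origin.

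VAX1, a homeobox gene of the optic stalk and the ventral forebrain, was at 93.7 and 107 TPM in aNE_T and at 38.5 and 39.1 TPM in aNE_H. It was at 0.560 and 0.549 TPM in aNE and 1.92 and 1.00 TPM in aNE_M. In the posterior groups it was at 1.27 and 2.21 TPM in pNE, 3.05 and 2.74 TPM in pNE_T, 0.152 and 0.0626 TPM in pNE_M, and 0.258 and 0.527 TPM in pNE_H. Both hPSC libraries were listed at 0. VAX1 was low in every day-2 library, and the 2 groups above 10 TPM were both of anterior origin and day 4.

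FEZF1, a zinc-finger repressor of the early forebrain, was at 323 and 325 TPM in aNE and at 227 and 220.3 TPM in aNE_T. It was at 32.2 and 18.4 TPM in aNE_H and 2.89 and 2.48 TPM in aNE_M. In the posterior groups it was at 5.66 and 9.51 TPM in pNE, 1.08 and 1.25 TPM in pNE_T, 0.264 and 0.220 TPM in pNE_M, and 0.550 and 0.221 TPM in pNE_H. The hPSC libraries both held 1.55 TPM. FEZF1 was below its hPSC level in all 6 day-4 libraries of posterior origin, and among neighbours in its order only pNE_H and pNE_M overlapped.

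FEZF2, the related factor that later specifies deep-layer projection neurons of the cortex, was at 14.4 and 12.6 TPM in aNE and 82.6 and 75.4 TPM in aNE_T. It was at 0.414 and 0.271 TPM in aNE_M and 2.25 and 2.84 TPM in aNE_H. In the posterior groups it was at 4.60 and 7.26 TPM in pNE, 17.3 and 12.1 TPM in pNE_T, 1.33 and 0.741 TPM in pNE_M, and 0.748 and 0.197 TPM in pNE_H. The hPSC libraries held 0.465 and 0.355 TPM. The pNE_T libraries overlapped those of aNE, so the second-highest group mean of FEZF2 was in cells of posterior origin. On the TPM scale, the ratio of FEZF1 to FEZF2 was 22.4 and 25.8 in aNE, 2.75 and 2.92 in aNE_T, and 0.0627 and 0.104 in pNE_T.

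HESX1, a homeodomain repressor of the anterior neural plate and the pituitary, was the gene of the 9 with the highest level in stem cells, at 11.5 and 14.9 TPM in hPSC. It was at 105 and 118 TPM in aNE and 40.5 and 30.9 TPM in pNE. At day 4 it was at 27.6 and 28.5 TPM in aNE_T, 1.61 and 2.08 TPM in aNE_M, and 4.51 and 1.95 TPM in aNE_H. It was at 0.766 and 1.03 TPM in pNE_T, 1.49 and 1.67 TPM in pNE_M, and 1.81 and 2.33 TPM in pNE_H. HESX1 was highest at day 2 in either origin and below its hPSC level in 5 of the 6 day-4 groups. Of these 5, aNE_H, pNE_H, aNE_M and pNE_M overlapped as neighbours.

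LHX2, a LIM-homeodomain factor of the eye field and the cortex, was at 101 and 102 TPM in aNE_T and 31.0 and 18.05 TPM in aNE_H. It was at 14.3 TPM in both aNE libraries and 0.192 and 0.0785 TPM in aNE_M. In the posterior groups it was at 12.1 and 14.96 TPM in pNE, 2.17 and 3.52 TPM in pNE_T, 1.83 and 0.264 TPM in pNE_M, and 1.63 and 2.03 TPM in pNE_H. The hPSC libraries held 0.477 and 0.513 TPM. The 2 day-2 groups overlapped. At day 4 the origins did not overlap in any medium: anterior cells were higher after the forebrain and hindbrain media, and after the midbrain medium they were lower, a difference that was not called. NKX2-1, which marks the hypothalamus and the ventral telencephalon, was listed at 0 in 15 of 18 libraries. It was at 0.0435 TPM in 1 aNE library and at 0.102 and 0.0791 TPM in aNE_T, with no value of 1 TPM or more.

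**Figure D1:**
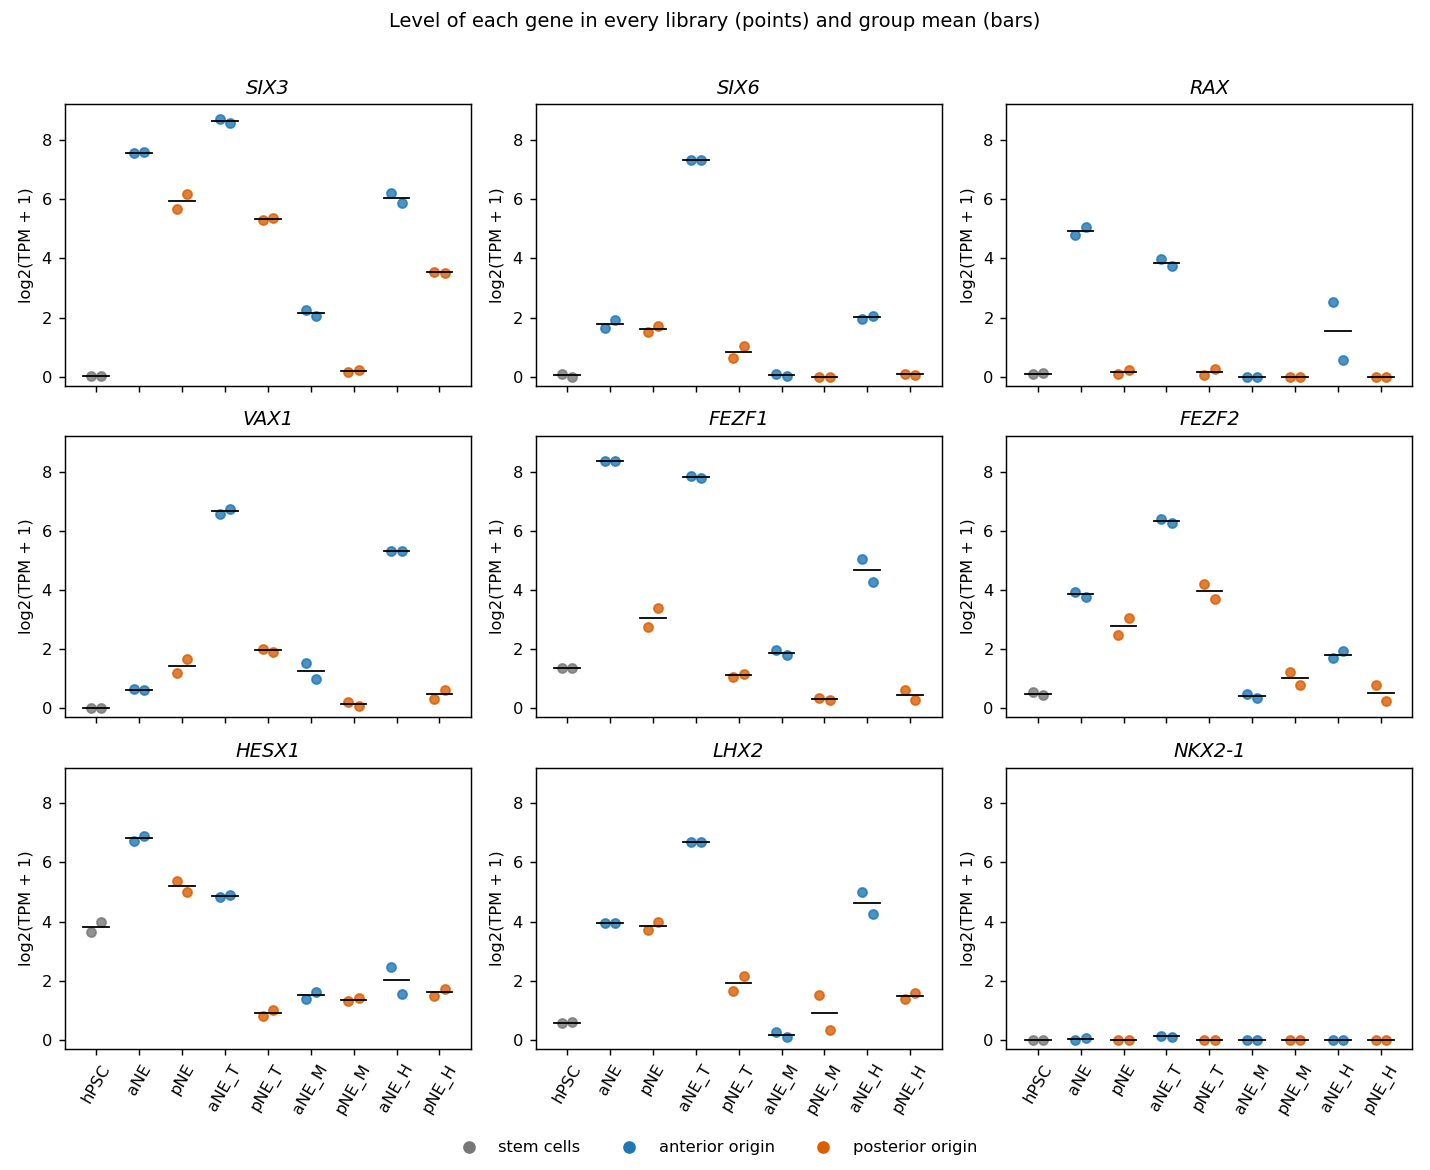
Level of the 9 genes as log2(TPM + 1) in the 9 groups, with a point for each library and a bar for the group mean. SIX3, SIX6, VAX1, FEZF2 and LHX2 peak in aNE_T and RAX, FEZF1 and HESX1 in aNE, while NKX2-1 stays at or below 0.102 TPM.

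Differences below are on the scale log2(TPM + 1), which understates the change of low genes, with the standard error (SE) from limma. A gene was called changed at a Benjamini-Hochberg adjusted p under 0.05 over all 17033 tested genes and a difference of at least 1. From hPSC to aNE, 7 of the 9 genes rose and 0 fell, where 13.5% of all tested genes changed in either direction. SIX3 rose by 7.53 (SE 0.15, limma adjusted p = 1.81e-12) and FEZF1 by 6.997 (SE 0.24, adjusted p = 1.98e-10). RAX rose by 4.83, FEZF2 by 3.36, LHX2 by 3.36, HESX1 by 2.99 and SIX6 by 1.74. VAX1, below 1 TPM in both groups, was not called. The median of the 8 tested genes was 3.36, beside 0.06 for all tested genes.

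From hPSC to pNE, 7 of the 9 genes also rose and 0 fell, where 12.9% of tested genes changed. This comparison shares its hPSC libraries with the one for aNE. SIX3 rose by 5.88 (SE 0.15, limma adjusted p = 1.73e-11) and LHX2 by 3.27 (SE 0.32, adjusted p = 4.48e-06). FEZF2 rose by 2.27, FEZF1 by 1.72, SIX6 by 1.58 and HESX1 by 1.37. VAX1 went from 0 in both hPSC libraries to 1.27 and 2.21 TPM (adjusted p = 1.13e-04). RAX was not called, with overlapping libraries and an adjusted p of 0.938. At day 2, cells given the posterior medium thus carried higher levels of most of these genes than stem cells did at day 0.

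Between the origins at day 2, 5 of the 9 genes were lower in pNE than in aNE and 0 were higher, where 3.85% of tested genes changed. The median of the 8 tested genes was -1.36, beside -0.01 for all tested genes. FEZF1 was 42.8-fold lower in mean TPM, a difference of -5.28 on the log2 scale (SE 0.24, limma adjusted p = 1.05e-08). RAX differed by -4.77 (SE 0.42, adjusted p = 5.74e-06), and its pNE libraries overlapped those of hPSC. SIX3 and HESX1 were each 3.12-fold lower in mean TPM, with log2 differences of -1.65 (SE 0.15) and -1.62 (SE 0.24). FEZF2 was 2.28-fold lower, with a log2 difference of -1.09 (SE 0.24, adjusted p = 0.00885). That call ended without aNE replicate 1 (adjusted p = 0.0747), without pNE replicate 1 (adjusted p = 0.0993) and with a pseudocount of 0.1 (adjusted p = 0.0960).

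Of the 8 tested genes, 3 were not called between the origins at day 2. SIX6 differed by -0.16 (SE 0.17, limma adjusted p = 0.628) and LHX2 by -0.08 (SE 0.32, adjusted p = 0.918), each with overlapping libraries. VAX1 was higher in pNE by 0.80 (SE 0.20, adjusted p = 0.0198), below the size set for a call. In pNE, 6 of the 7 genes with at least 1 TPM were higher in replicate 2, and the 9 genes summed to 116 and 139 TPM in its libraries. In aNE they summed to 673 and 698 TPM. Of 9 hindbrain markers, 7 were at 1 TPM or more in both pNE libraries, where they summed to 369 to 431 TPM, and 1 of 9 was in aNE, where they summed to 2.87 to 3.003 TPM. Their part in the difference was not tested.

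After the forebrain medium, 8 of the 9 genes were lower in pNE_T than in aNE_T and 0 were higher, where 7.77% of tested genes changed. The median of the 8 tested genes was -4.32, beside -0.05 for all tested genes. The differences in log2 were -6.70 for FEZF1, -6.50 for SIX6, -4.76 for LHX2, -4.70 for VAX1, -3.94 for HESX1, -3.69 for RAX, -3.32 for SIX3 and -2.37 for FEZF2. In mean TPM, FEZF1 was 192-fold lower, LHX2 35.7-fold, VAX1 34.6-fold, SIX3 10.2-fold and FEZF2 5.39-fold. The weakest limma adjusted p among the 8 was that of RAX, 2.59e-05, and no library of pNE_T reached the level of an aNE_T library for any of them. The smallest difference was that of FEZF2, which at 17.3 and 12.1 TPM was near its day-2 aNE level. Hindbrain markers summed to 674 to 714 TPM in pNE_T, with 9 of 9 at 1 TPM or more, and to 35.1 to 36.1 TPM in aNE_T, with 2 of 9. Pan-neural markers summed to 1268 to 1293 TPM in pNE_T and 1846 to 1899 TPM in aNE_T. The part of these marker levels, like that of seeding density, was not tested.

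After the midbrain medium, 3 of the 9 genes were lower in pNE_M than in aNE_M and 0 were higher, where 5.74% of tested genes changed. The median of the 8 tested genes was -0.10. SIX3 differed by -1.95 (SE 0.15, limma adjusted p = 9.77e-07), FEZF1 by -1.57 (SE 0.24, adjusted p = 3.89e-04) and VAX1 by -1.13 (SE 0.20, adjusted p = 0.00162). All 3 were below 4 TPM in every library of these groups. The VAX1 call ended without aNE_M replicate 1, where the difference was -0.86, and in a fit of the 4 libraries compared (adjusted p = 0.0630). FEZF2 was at 0.414 and 0.271 TPM in aNE_M and 1.33 and 0.741 TPM in pNE_M, with a difference of 0.59 and an adjusted p of 0.131. LHX2 differed by 0.74 with an adjusted p of 0.153. Midbrain markers summed to 346 to 354 TPM in aNE_M, with 6 of 8 at 1 TPM or more in both libraries, and to 38.8 to 40.2 TPM in pNE_M, with 2 of 8. Hindbrain markers summed to 11.6 to 17.5 TPM in aNE_M, with 1 of 9, and to 799.7 to 805 TPM in pNE_M, with 8 of 9. Mesendoderm markers summed to 98.1 to 117 TPM in aNE_M and 16.03 to 16.6 TPM in pNE_M. The part of these markers was not tested.

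After the hindbrain medium, 7 of the 9 genes were lower in pNE_H than in aNE_H and 0 were higher, where 6.83% of tested genes changed. The median of the 8 tested genes was -2.23. VAX1 differed by -4.85 (SE 0.20, limma adjusted p = 2.65e-09), FEZF1 by -4.21 (SE 0.24, adjusted p = 3.93e-08) and LHX2 by -3.13 (SE 0.32, adjusted p = 1.10e-05). SIX3 differed by -2.52, SIX6 by -1.93 and FEZF2 by -1.29. RAX was listed at 0 in both pNE_H libraries, beside 4.75 and 0.487 TPM in aNE_H (adjusted p = 0.0184). That call ended without aNE_H replicate 1 (adjusted p = 0.0899), without pNE_H replicate 1 (adjusted p = 0.0736) and without pNE_H replicate 2 (adjusted p = 0.0732). HESX1 was not called, with overlapping libraries and an adjusted p of 0.290. Hindbrain markers summed to 94.0 to 99.99 TPM in aNE_H and 952 to 1112 TPM in pNE_H, and their part was not tested.

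**Figure D2:**
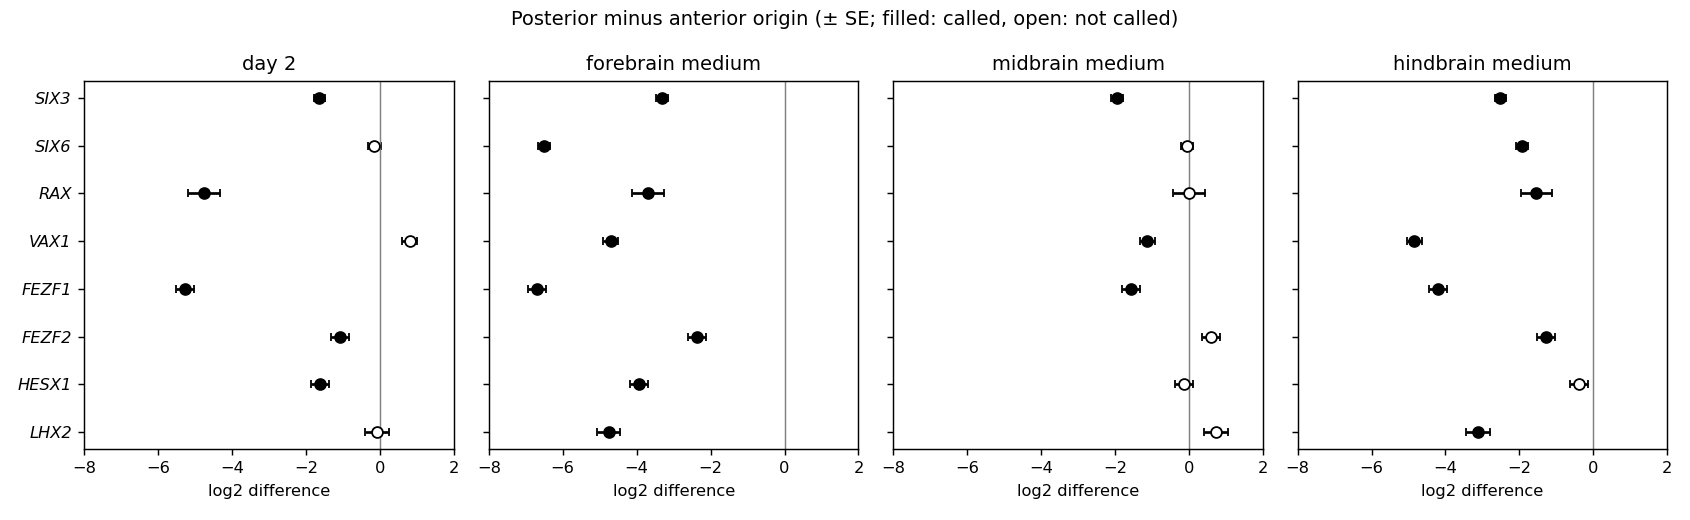
Difference in log2(TPM + 1) between cells of posterior and anterior origin for the 8 tested genes at day 2 and after each medium, with limma standard errors. Filled points are called and open points are not. Differences range from 0.80 to -6.70, and the 8 genes lie below 0 together after the forebrain medium.

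From aNE to aNE_T, 5 of the 9 genes rose and 1 fell, where 9.03% of tested genes changed. VAX1 rose by 6.02 (SE 0.20, limma adjusted p = 3.25e-10). SIX6 rose by 5.55 (SE 0.17, adjusted p = 1.61e-10), or 65.0-fold in mean TPM. LHX2 rose by 2.74 and FEZF2 by 2.46, or 7.10-fold and 5.84-fold in mean TPM. SIX3 rose by 1.06 (SE 0.15, adjusted p = 1.46e-04), and by 0.997 without aNE_T replicate 1, just under the size set for a call. HESX1 fell by 1.95 (SE 0.24, adjusted p = 4.93e-05). RAX at -1.07 (adjusted p = 0.0748) and FEZF1 at -0.53 (adjusted p = 0.109) were not called, though neither gene's libraries overlapped between the groups.

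From aNE to aNE_M, 7 of the 9 genes fell and 0 rose, where 12% of tested genes changed. FEZF1 fell by 6.47 (SE 0.24, limma adjusted p = 3.49e-10), SIX3 fell by 5.42 and HESX1 fell by 5.31, or 121-fold, 54.7-fold and 60.4-fold in mean TPM. The changes were -3.76 for LHX2, -3.43 for FEZF2 and -1.73 for SIX6, and RAX was listed at 0 in both libraries. VAX1 was not called, with a difference of 0.64 and an adjusted p of 0.0270. Of 8 midbrain markers, 6 were at 1 TPM or more in both aNE_M libraries, where they summed to 346 to 354 TPM. The 9 mesendoderm markers, 3 of them at that level, summed to 98.1 to 117 TPM in aNE_M beside 31.7 to 33.1 TPM in aNE. They did not move together: the mean of MIXL1 was 86.5 TPM in aNE_M beside 0.294 TPM in aNE, and that of GSC 0.520 beside 29.4 TPM. Pan-neural markers summed to 665 to 704 TPM in aNE_M beside 1206 to 1249 TPM in aNE. These did not move together either. SOX1, SOX2, SOX3, NES, ZIC2 and NCAM1 had lower means in aNE_M than in aNE. The means of ZIC1 and CDH2 were higher, at 34.5 beside 10.6 TPM and at 175 beside 145 TPM. SOX17, of the mesendoderm list, was listed at 0 in 13 of 18 libraries. The part of these markers in the falls was not tested.

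From aNE to aNE_H, 1 of the 9 genes rose and 5 fell, where 10.1% of tested genes changed. VAX1 rose by 4.68 (SE 0.20, limma adjusted p = 3.41e-09). HESX1 fell by 4.799 (SE 0.24, adjusted p = 1.30e-08). The other falls were -3.68 for FEZF1, -3.38 for RAX, -2.04 for FEZF2 and -1.52 for SIX3. LHX2 at 0.69 (adjusted p = 0.127) and SIX6 at 0.22 (adjusted p = 0.351) were not called. VAX1 was the only one of the 9 genes called higher in anterior cells after the hindbrain medium than at day 2.

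From pNE to pNE_T, 1 of the 9 genes rose and 3 fell, where 10.2% of tested genes changed. FEZF2 rose by 1.18 (SE 0.24, limma adjusted p = 0.00215). Its rise was 0.90 without pNE replicate 1 and 0.94 without pNE_T replicate 1, under the size set for a call. HESX1 fell by 4.26 (SE 0.24, adjusted p = 3.68e-08), FEZF1 fell by 1.95 and LHX2 fell by 1.93. SIX3, at -0.61 with an adjusted p of 0.00742, and SIX6, at -0.80 with an adjusted p of 0.00271, were below the size set for a call. VAX1 was at 0.53 (adjusted p = 0.0645).

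From pNE to pNE_M, 7 of the 9 genes fell and 0 rose, where 12.7% of tested genes changed. SIX3 fell by 5.71 (SE 0.15, limma adjusted p = 2.10e-11). The other falls were -3.82 for HESX1, -2.93 for LHX2, -2.75 for FEZF1, -1.76 for FEZF2, -1.63 for SIX6 and -1.29 for VAX1. From pNE to pNE_H, 6 of the 9 genes fell and 0 rose, where 12.3% of tested genes changed. HESX1 fell by 3.57 (SE 0.24, adjusted p = 1.39e-07). The other falls were -2.60 for FEZF1, -2.39 for SIX3, -2.36 for LHX2, -2.23 for FEZF2 and -1.55 for SIX6. RAX, at 0.0559 and 0.183 TPM in pNE and listed at 0 in pNE_M and pNE_H, was not called in either comparison.

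Set against the forebrain medium, the midbrain medium left 8 of the 9 genes lower in anterior cells, where 10.1% of tested genes changed, and the hindbrain medium also 8 of 9, where 6.6% changed. SIX6 differed by -7.27 in aNE_M and -5.32 in aNE_H, and FEZF2 by -5.90 and -4.50. VAX1 differed by -5.38 in aNE_M but by -1.34 in aNE_H (SE 0.20, limma adjusted p = 3.17e-04), its smallest difference among these. In posterior cells, SIX3, VAX1 and FEZF2 were lower after the midbrain medium, 3 of the 9 genes where 8.6% of tested genes changed. The same 3 genes were lower after the hindbrain medium, where 5.03% changed. SIX3 differed by -5.11 in pNE_M and -1.78 in pNE_H, and FEZF2 by -2.94 and -3.42. With a pseudocount of 0.1 in place of 1, 6 of the 9 genes were called, counted in either direction, in each of the comparisons of posterior cells. The count for pNE_M was 5 without pNE_T replicate 1. The comparisons with a common forebrain group share its libraries.

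The interaction asks whether cells of either origin changed differently from day 2 to day 4. It is the change of posterior cells in a medium minus the change of anterior cells in that medium. Cells for day 4 were also seeded more densely than those for day 2, by more in posterior cells, and the part of this was not tested. In the forebrain medium 7 of the 9 genes had a lower change in posterior cells and 0 a higher one, where 7.14% of tested genes were called. SIX6 differed by -6.35 (SE 0.24, limma adjusted p = 4.60e-09). The interaction was -5.49 for VAX1 (SE 0.29, adjusted p = 5.44e-08), and LHX2 differed by -4.68 (SE 0.45, adjusted p = 1.28e-05). SIX6 and LHX2 had overlapped between the origins at day 2. LHX2 rose from 14.3 TPM in both aNE libraries to 101 and 102 TPM in aNE_T, and fell from 12.1 and 14.96 TPM in pNE to 2.17 and 3.52 TPM in pNE_T. HESX1 differed by -2.32, SIX3 by -1.67 and FEZF1 by -1.42.

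Less firm was FEZF2 in that medium, which rose in both origins and differed by -1.28 (SE 0.34, limma adjusted p = 0.0267). Its call ended with a pseudocount of 0.1 (adjusted p = 0.268), with no filter on low values (adjusted p = 0.0570) and in 6 of the 8 fits that left out 1 library, where the adjusted p was 0.0521 to 0.112. The 6 libraries were both replicates of aNE and of aNE_T, pNE replicate 2 and pNE_T replicate 2. The FEZF1 call ended without pNE replicate 2 (adjusted p = 0.0517). RAX was not called.

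In the midbrain medium 4 of the 9 genes had a higher, that is less negative, change in posterior cells and 1 a lower one, where 7.02% of tested genes were called. RAX differed by 4.77 and FEZF1 by 3.72, and both had started low in pNE, at 0.0559 and 0.183 TPM for RAX and 5.66 and 9.51 TPM for FEZF1. A gene that starts near 0 cannot fall as far, so the size of these interactions is tied to the day-2 levels. RAX was listed at 0 in every aNE_M and pNE_M library, so its value is the day-2 difference between the origins with the sign turned. FEZF2 differed by 1.68, HESX1 by 1.49 and VAX1 by -1.93. HESX1 ended near the same level in both origins, at a mean of 1.84 TPM in aNE_M and 1.58 TPM in pNE_M. Its value is thus also tied to the day-2 levels. VAX1 was at most 2.21 TPM in any library of aNE, aNE_M, pNE and pNE_M. In the hindbrain medium 3 had a higher and 3 a lower change in posterior cells, where 7.83% of tested genes were called. VAX1 differed by -5.64, LHX2 by -3.05 and SIX6 by -1.77, and RAX by 3.22, HESX1 by 1.23 and FEZF1 by 1.08. The value of RAX is again tied to its low level in pNE, since it was at 0 in both pNE_H libraries. That of HESX1 is also tied to the day-2 levels, since its aNE_H and pNE_H libraries overlapped, with means of 3.23 and 2.07 TPM. With a pseudocount of 0.1, 3 genes were called in place of 6: RAX had an adjusted p of 0.0774, HESX1 of 0.109, and FEZF1 turned to -0.30 (adjusted p = 0.744). Leaving out 1 library ended the call of HESX1 in 5 of 8 fits (both replicates of aNE, and replicate 2 of aNE_H, pNE and pNE_H) and that of FEZF1 in 5 of 8 (both replicates of aNE, aNE_H replicate 2, and replicate 1 of pNE and pNE_H).

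**Figure D3:**
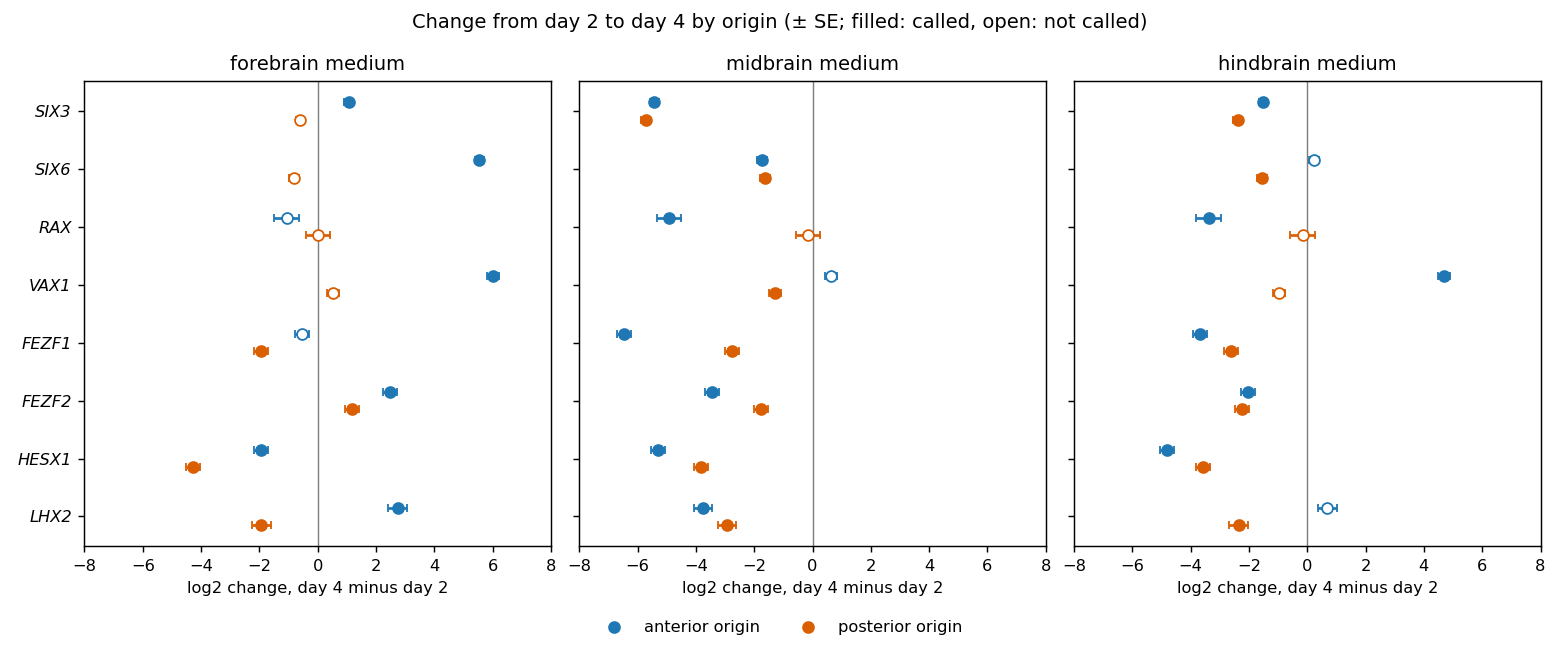
Change in log2(TPM + 1) from day 2 to day 4 for the 8 tested genes in the forebrain, midbrain and hindbrain media, by origin, with limma standard errors; filled points are called. In the forebrain medium SIX6, VAX1 and LHX2 rise by 2.74 to 6.02 in anterior cells. In posterior cells LHX2 falls by a called amount, while a fall of SIX6 and a rise of VAX1 are not called.

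Summed over the 9 genes, aNE_T libraries held 1121 and 1084 TPM, aNE 673 and 698 TPM, and aNE_H 189.9 and 142 TPM. The posterior groups held 116 and 139 TPM in pNE, 62.9 and 61.6 TPM in pNE_T, 15.8 and 15.7 TPM in pNE_H, and 5.20 and 3.14 TPM in pNE_M. The hPSC libraries held 14.2 and 17.4 TPM and aNE_M 10.9 and 9.09 TPM. FEZF1 made up 47.3% of it in aNE, while SIX3 led with 36.0% in aNE_T, ahead of FEZF1 with 20.3% and SIX6 with 14.5%. SIX3 made up 62.5% in pNE_T, followed by FEZF2 with 23.6%, and 67.0% in pNE_H. In hPSC, HESX1 made up 83.7%.

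**Figure D4:**
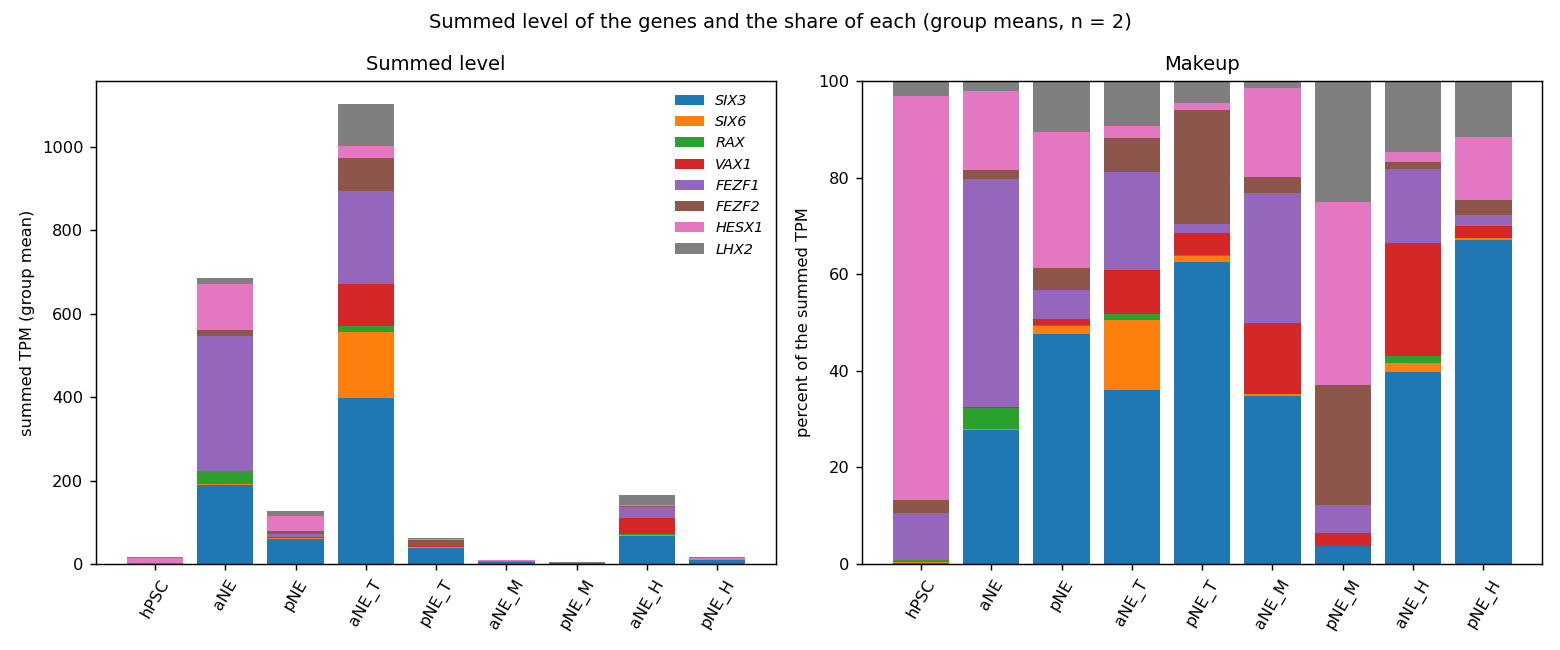
Stacked bars of the summed TPM in each group (left, mean of 2 libraries) and of each gene's share of that sum in percent (right). NKX2-1 is too low to draw. FEZF1 is the leading share in aNE, SIX3 in aNE_T and pNE_T, and HESX1 in hPSC.

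Across the 9 group means of log2(TPM + 1), RAX and FEZF1 had the closest courses among the 8 expressed genes, with a Pearson r of 0.959. SIX3 and LHX2 had an r of 0.894, SIX6 and LHX2 of 0.890, and SIX6 and VAX1 of 0.844. VAX1 and HESX1 had the lowest, 0.0911: the first is highest at day 4 and the second at day 2. These are descriptions over 9 points that share cell line and protocol. Of 12333 other genes, the nearest to SIX6 was MPPED1, with an r of 0.984, whose mean was 12.48 TPM in aNE_T and at most 1.93 TPM elsewhere. The nearest to HESX1 was CAMKMT, with an r of 0.988, at 16.3 TPM in hPSC, 41.9 TPM in aNE, 27.8 TPM in pNE, 27.6 TPM in aNE_T and 9.14 to 11.99 TPM in the other day-4 groups. LGALS3, the galectin-3 gene, was next with an r of 0.969. RASA2, a RAS GTPase-activating protein gene, was nearest to both RAX, with an r of 0.968, and FEZF1, with an r of 0.965. STAT5B was nearest to FEZF2 (r = 0.982), RBM48 to SIX3 (r = 0.968), MAPRE1 to VAX1 (r = 0.978) and ZNF347 to LHX2 (r = 0.969). Several of these moved over a small range, such as RBM48, whose group means spanned 2.51 to 5.16 TPM.

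Other genes of the eye field were counted by the same rule. Of 11 listed, 5 were tested: 1 was higher and 1 lower in pNE than in aNE, where 3.85% of all tested genes changed, and 1 was higher and 0 lower in pNE_T than in aNE_T, where 7.77% did. The median difference of the 5 in pNE_T was 0.45, beside -0.05 for all tested genes. PAX6, the paired-box gene of the eye and the cortex, had 29.1 ± 0.287 TPM in aNE but 1.94 ± 0.852 TPM in pNE (SD, n = 2), a difference of -3.39 (limma adjusted p = 2.14e-07). After the forebrain medium its mean was 18.4 ± 1.94 TPM for aNE_T and 34.6 ± 8.95 TPM for pNE_T. VAX2, the relative of VAX1 in the ventral eye, was higher in pNE_T (14.6 ± 3.70 TPM) than in aNE_T (0.745 ± 0.165 TPM), a difference of 3.15 (adjusted p = 7.41e-08). RAX2 and LHX9, genes of the retina and the optic vesicle, stayed below 1 TPM, at most 0.245 and 0.380 TPM in any library.

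Of 11 listed telencephalon genes, 7 were tested: 0 were higher and 2 lower in pNE than in aNE, 0 higher and 4 lower in pNE_T than in aNE_T, and 2 rose and 3 fell from aNE to aNE_T. The shares of all tested genes changed in these comparisons were 3.85%, 7.77% and 9.03%. The median difference of the 7 between pNE_T and aNE_T was -2.08, beside -0.05 for all tested genes. SP8, a zinc-finger gene of the anterior neural ridge, rose by 1.75 (SE 0.18, limma adjusted p = 1.13e-05), from 8.13 ± 0.792 TPM in aNE to 29.6 ± 1.49 TPM in aNE_T (SD, n = 2). OTX2, a gene of the forebrain and midbrain, fell by 1.63 in that step, from 209 ± 7.67 to 66.9 ± 5.88 TPM, and LHX5 fell by 1.82, from 258 ± 0.152 to 72.5 ± 2.15 TPM. OTX2 was at 0.811 ± 0.250 TPM in pNE_T and LHX5 at 0.504 ± 0.467 TPM. Of 10 listed diencephalon and hypothalamus genes 2 were tested, and 1 of them, TCF7L2, was lower in pNE_T than in aNE_T, by -1.44 (adjusted p = 3.64e-06), beside the 7.77% of all tested genes that changed. NKX2-4 and NKX2-2, like NKX2-1 genes of the hypothalamus or ventral neural tube, were at most 0.258 and 0.172 TPM in any library.

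All 12 listed signals and antagonists were tested: 0 were higher and 3 lower in pNE than in aNE, and 2 were higher and 3 lower in pNE_T than in aNE_T, where their median difference was -0.11. The shares of all tested genes changed were 3.85% and 7.77%. FGF8, the signal of the anterior neural ridge, rose from 4.16 ± 0.751 TPM in aNE to 71.2 ± 8.95 TPM in aNE_T (SD, n = 2), by 3.81 (limma adjusted p = 2.19e-06), and was at 1.45 ± 0.364 TPM in pNE_T. FRZB, a secreted WNT antagonist, had 109.6 ± 0.426 TPM in aNE_T but 3.04 ± 0.320 TPM in pNE_T, a difference of -4.78 (adjusted p = 3.06e-11). SFRP5, another antagonist of that kind, was higher in pNE_T, by 3.16. GLI1, a hedgehog target, fell by 2.34 from aNE to aNE_T, and SHH was at most 2.47 TPM in any library. PTCH1, of the same list and pathway, did not fall: its mean was 28.9 TPM in aNE and 32.0 TPM in aNE_T.

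All 14 listed corepressors and cofactors were tested: 0 were higher and 1 lower in pNE than in aNE, 0 higher and 5 lower in pNE_T than in aNE_T, and 2 rose and 2 fell from aNE to aNE_T. Of all tested genes, 3.85%, 7.77% and 9.03% changed in these comparisons. The median difference of the 14 between pNE_T and aNE_T was -0.63. TLE5 and TLE4, genes of the Groucho family, were lower in pNE_T by -2.54 (limma adjusted p = 2.01e-09) and -1.36. TLE5 rose by 1.22 from aNE to aNE_T. LMO1, a LIM-only gene whose family competes with LHX2 for LIM cofactors, was at 12.8 ± 0.128 TPM in aNE, 2.84 ± 0.0467 TPM in aNE_T and 0.577 ± 0.256 TPM in pNE (SD, n = 2). DACH1, a cofactor of SIX-family homeodomain proteins, was at 9.01 ± 0.0932 TPM in aNE_T and highest in aNE_M, at 42.6 ± 4.17 TPM, and pNE_M, at 41.0 ± 1.68 TPM, the differentiated groups with the lowest summed TPM of the 9 genes. SIX4, which lies near SIX6 on chromosome 14, was lower in pNE_T (8.71 ± 1.07 TPM) than in aNE_T (23.8 ± 0.838 TPM), by a difference of -1.36.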

How the data were processed

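Messenger RNA was measured by poly-T selected, random-primed RNA sequencing in 18 libraries. The submitters' processing notes name kallisto, Trim Galore, FastQC, bcl2fastq, deepTools and hg38, without versions. The authors deposited 1 table of 37550 rows with TPM as its unit, and the annotation behind it is not given in the sources used here.

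Tests used log2(TPM + 1) of the 17033 genes that reached 1 TPM in 2 or more libraries. In limma (3.58.1, R 4.3.3) each group had its own mean in 1 joint fit of the 18 libraries, which left 9 residual degrees of freedom, and variances were moderated with a trend. P-values were two-sided and Benjamini-Hochberg adjusted over the tested genes. The script was tested on simulated data. There were 16 comparisons of groups and 3 interactions. Replicates are labelled biological, with no further detail, so p-values measure the spread between these libraries.

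Named genes were the 9 members, up to 4 changed genes per partner list with at least 5 TPM in the higher group, and the 3 genes nearest each member by r. A few others are named for their level alone and were chosen after their values were seen. Some genes under this rule are not reported here. The members, lists and tests were chosen with earlier results of these data known. Alternatives were a pseudocount of 0.1, no filter, a minimum of 5 TPM, scaling by median ratios or by quantiles, no trend, the replicate block, only the compared libraries, adjusted p alone, and leaving out each library.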

Additional observations from a re-analysis of the deposited data

Results flagged for a closer look

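The following genes changed differently from day 2 to day 4 in cells of the 2 origins, by limma's test of the difference itself, given as posterior minus anterior change in log2(TPM + 1) with its standard error and Benjamini-Hochberg adjusted p. In the forebrain medium the difference was -6.35 ± 0.24 for SIX6 (adjusted p = 4.60e-09) and -5.49 ± 0.29 for VAX1 (adjusted p = 5.44e-08). It was -4.68 ± 0.45 for LHX2 (adjusted p = 1.28e-05), -2.32 ± 0.34 for HESX1 (adjusted p = 4.84e-04) and -1.67 ± 0.21 for SIX3 (adjusted p = 1.43e-04). It was -1.42 ± 0.33 for FEZF1 (adjusted p = 0.0128) and -1.28 ± 0.34 for FEZF2 (adjusted p = 0.0267). The FEZF2 call ended with a pseudocount of 0.1 (adjusted p = 0.268), with no filter (adjusted p = 0.0570) and in 6 of the 8 fits that left out 1 library, and the FEZF1 call ended without pNE replicate 2 (adjusted p = 0.0517).

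In the midbrain medium it was 4.77 ± 0.60 for RAX (adjusted p = 1.15e-04), 3.72 ± 0.33 for FEZF1 (adjusted p = 6.01e-06), 1.68 ± 0.34 for FEZF2 (adjusted p = 0.00520) and 1.49 ± 0.34 for HESX1 (adjusted p = 0.0111). VAX1 went the other way there, at -1.93 ± 0.29 (adjusted p = 5.31e-04). RAX was listed at 0 in every aNE_M and pNE_M library, so its value is the day-2 difference between the origins with the sign turned. FEZF1 had also started low in pNE and could not fall as far. HESX1 ended near the same level in both origins, with means of 1.84 TPM in aNE_M and 1.58 TPM in pNE_M, so its value is also tied to the day-2 levels. VAX1 was at most 2.21 TPM in any library of aNE, aNE_M, pNE and pNE_M.

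In the hindbrain medium it was -5.64 ± 0.29 for VAX1 (adjusted p = 4.82e-08), -3.05 ± 0.45 for LHX2 (adjusted p = 4.72e-04) and -1.77 ± 0.24 for SIX6 (adjusted p = 2.13e-04). RAX was at 3.22 ± 0.60 (adjusted p = 0.00231), HESX1 at 1.23 ± 0.34 (adjusted p = 0.0279) and FEZF1 at 1.08 ± 0.33 (adjusted p = 0.0447). With a pseudocount of 0.1 these 3 calls ended: FEZF1 was at -0.30 (adjusted p = 0.744), and HESX1 and RAX had an adjusted p of 0.109 and 0.0774. With no filter, the adjusted p was 0.0868 for FEZF1 and 0.0581 for HESX1, and each of these 2 calls ended in 5 of the 8 fits that left out 1 library. The replicate block also ended the FEZF1 call (adjusted p = 0.0549). RAX was near 0 in pNE and at 0 in pNE_H, so its value is tied to the day-2 levels. So is that of HESX1, whose aNE_H and pNE_H libraries overlapped, with means of 3.23 and 2.07 TPM.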

How the results depend on the processing

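The 9 genes gave 113 called combinations of gene and comparison. Refitted under the alternatives, these gave 1427 values, of which 1388 kept their direction and their side of the threshold, 38 kept the direction and lost the call, and 1 turned round. That value was FEZF1 in the hindbrain interaction with a pseudocount of 0.1, at -0.30 in place of 1.08 (limma adjusted p = 0.744), and the cause was not tested. The count of genes called in either direction between pNE_M and pNE_T was 6 in place of 3 with a pseudocount of 0.1 and 6 by adjusted p alone. The count in pNE_H against pNE_T was 6 in place of 3 with a pseudocount of 0.1. The count in the hindbrain interaction was 3 in place of 6 with that pseudocount. A smaller pseudocount gives low levels more weight. The filter at 5 TPM, median-ratio scaling and quantile normalization changed none of the 113 calls. Where leaving out a library left a group with 1, that library was assumed to vary like the others.

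The replicate number was also fitted as a replicate block. It kept 112 of the 113 calls, and the exception was FEZF1 in the hindbrain interaction (adjusted p = 0.0549). Same-numbered libraries did not deviate together: over 36 pairs of groups the correlation of deviations was -0.0896 to 0.0762, with 0 pairs over 0.1, so the numbers were not read as pairing.

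The share of all tested genes called per comparison was 3.85% to 13.5%. By adjusted p alone it was 12.3% to 41.5%, and with no filter 2.3% to 8.24%, each more than 1.5 times off in all 19 comparisons. TPM keeps no depth, so levels under 1 TPM, such as those of NKX2-1, are not told apart from each other here.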
